A study of Homo sapiens with 6 samples.

Results

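The 10 genes described here encode the network of paired transcription factors around MYC: MYC, MAX, MXD1, MXD3, MXD4, MXI1, MNT, MGA, MLX and MLXIP. They were chosen by name, as the rows of the deposited expression table that carry these symbols. All 10 were present among its 15024 genes. Their expression was measured by RNA sequencing of MDA-MB-231 cells, a triple-negative breast cancer line of human origin. All 6 samples are labelled MLL3-null, MLL3 being the histone methyltransferase that KMT2C encodes. For 14 days the cells had received forskolin at 10 µM, which activates adenylyl cyclase, and they were then sorted by flow cytometry on CD44 and on CD104, the integrin beta-4 protein. Of the sorted fractions, 3 samples were CD44+CD104high, which the study calls hybrid between epithelial and mesenchymal states, and 3 were CD44+CD104-/low, called mesenchymal and named CD104low here. Both fractions share the genotype, the treatment and the cell line, so neither the MLL3 genotype nor forskolin is compared. The labels call the samples biological replicates without naming cultures, clones or days, so the p-values here cover only the spread among these libraries, which may be technical.

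The members are proteins with a basic helix-loop-helix leucine zipper, a domain that binds DNA only as a dimer. MAX is the common partner: with MYC it activates genes of growth, ribosome production and the cell cycle, and with the MXD proteins, MXI1 or MNT it recruits the SIN3 and histone deacetylase corepressor to the same sites. MGA is a large MAX partner found in a polycomb complex called PRC1.6. MLX is a MAX-like protein that pairs with the glucose-responsive factors MLXIP (MondoA) and MLXIPL (ChREBP), and also with some MXD proteins and MNT. All these dimers recognise the E-box, whose preferred letters are CACGTG. MYC messenger RNA and protein are both short-lived, and MYC is amplified or overexpressed in many breast cancers.

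The E-box also occurs in promoters of the network itself, and every match found in a member is shown, whether or not the member differed between the populations. In the main test described below, MXD4, MNT and MLX held it and differed, while MGA and MLXIP differed without it. MAX, MXD1, MXD3 and MXI1 lacked it and did not pass. RefSeq promoters on GRCh38.p14, each running from 250 bases before to 50 bases after a transcription start, were matched by symbol for 9 of the 10 members, all but MYC. CACGTG, a palindrome that reads the same on both strands, was found in 3 of them. It occurred in 7.26% of all 35116 promoters and in 12.2% of the 11138 tested genes that have a promoter in the table and a symbol of their own. The matches are printed 5′ to 3′ on the strand of the gene with the motif in capitals, first for MXD4 (chr4:2262315-2262359, minus strand, motif starting 238 bases before the start site), then for MNT (chr17:2401221-2401280, minus strand, 193 bases before) and for MLX (chr17:42567023-42567082, plus strand, 50 bases before).
MXD4: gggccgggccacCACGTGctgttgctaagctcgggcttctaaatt
MNT: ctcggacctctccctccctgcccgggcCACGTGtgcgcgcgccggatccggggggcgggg
MLX: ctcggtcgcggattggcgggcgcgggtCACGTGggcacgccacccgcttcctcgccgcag
The promoter of MLXIP held no E-box but had the 8 letters TGACGTCA, the full cAMP response element (chr12:122078672-122078733, plus strand, 57 bases before the start, palindromic, no overlap with an E-box). That element occurred in 1.85% of all promoters and in 3.65% of the 11138 tested genes.
MLXIP: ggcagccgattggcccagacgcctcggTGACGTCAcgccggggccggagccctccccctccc
A match is a run of letters and was not measured as a bound site in these cells.

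All 10 members passed the filter on low values (at least 10 in at least 3 libraries). Between the populations the network moved in opposite directions. MYC and MLX fell in CD104high, MXD4, MNT, MGA and MLXIP rose, and MAX, MXD1, MXD3 and MXI1 did not pass the test. This made 4 members higher and 2 lower of 10, against 21.8% of the 14420 tested genes called higher and 21.6% called lower, or 43.4% in either direction. The test was limma with an intensity trend on log2(value + 1), fitted to the whole table, with Benjamini-Hochberg adjustment over all tested genes and a threshold of 0.05. The median log2 fold change of the 10 members was 0.25, beside 0.02 over all tested genes. When each library was corrected for transcript length and GC content, only MYC, MLX and MXD4 still passed (3 of 10, where 40.1% of all genes did). That left 1 rise, against 20.4% of genes called higher, and 2 falls, against 19.8% called lower. In 7 members the 3 values of one population lay wholly apart from the 3 of the other, as they did in 54.3% of all tested genes. Of these, 5 were higher (27.4% of all genes) and 2 lower (26.9%). The authors' deposited table called 7 of the 10 members and 45.7% of all genes with an adjusted p-value in it, the added member being MXD1.

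**Figure D1:**
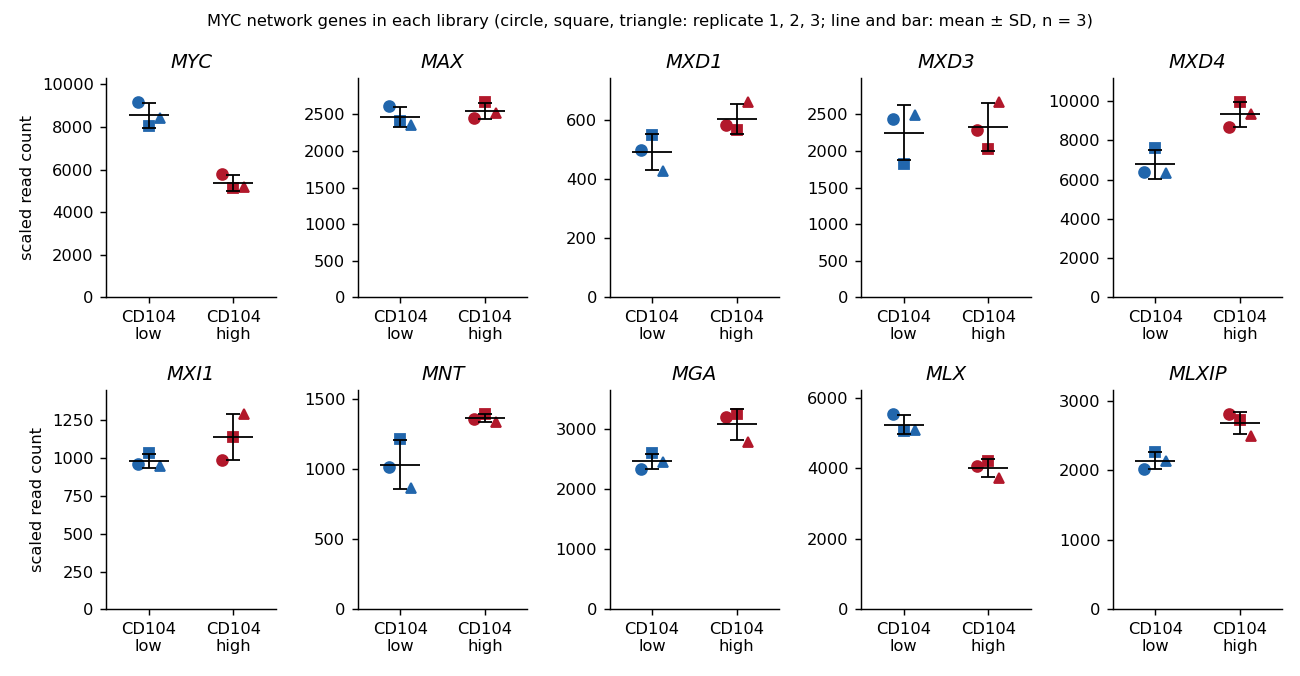
Scaled read count (vertical axes, from 0) of each network gene in the 3 CD104low (blue) and 3 CD104high (red) libraries. Circle, square and triangle are replicates 1, 2 and 3, and the line and bar are the mean and SD. The blue MYC points lie between 8032 and 9180, all above the red ones at 5159 to 5788, while the points of MAX and MXD3 overlap.

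MYC (ENSG00000136997.19), the activating arm of the network, had the largest difference of the 10 in either direction. Its scaled read counts were 5788, 5159 and 5173 in CD104high replicates 1 to 3 and 9180, 8032 and 8417 in CD104low replicates 1 to 3. The lowest CD104low library thus stood well above the highest CD104high library. The means were 5373 ± 359 and 8543 ± 584 (SD, n = 3 each), 1.59-fold lower in CD104high. The log2 fold change of -0.67 with an SE of 0.07 (limma adjusted p = 0.000449) was -0.68 with the length and GC correction. In a sorted bulk sample, fewer cells with the transcript and less transcript per cell cannot be told apart. The paralogue MYCL gave little signal, at 15.2 ± 9.61 and 17.4 ± 7.53 (SD, n = 3 each), and did not pass. MYCN was not analysed here.

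MAX (ENSG00000125952.20; GRCh38 chromosome 14, 65006174 to 65102695), the obligate partner, was nearly level. It read 2456, 2670 and 2517 in CD104high and 2612, 2410 and 2356 in CD104low. The 2 sets overlapped, and the log2 fold change of 0.05 (SE 0.07) did not pass (limma adjusted p = 0.595). MAX lies opposite FNTB on the other strand. The sources used here do not say whether reads were counted by strand, so the 2 genes may share reads.

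MXD4 (ENSG00000123933.17; chromosome 4, 2247432 to 2262294), a MAX partner that represses E-box genes and is associated with cells leaving the cycle, had the largest rise. Its values were 8679, 9952 and 9336 in CD104high and 6376, 7604 and 6334 in CD104low. Every CD104high library exceeded every CD104low library, and replicate 2 was the highest in both populations. The means of 9322 ± 637 and 6771 ± 722 (SD, n = 3 each) gave a 1.38-fold rise, with a log2 fold change of 0.46 with an SE of 0.09 (limma adjusted p = 0.00343). Corrected for length and GC content, the log2 fold change of MXD4 was 0.28 and still passed (limma adjusted p = 0.0204).

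The 3 other repressors of the MXD family did not pass. MXD1 (chromosome 2, 69897688 to 69942945), the first MAD protein described and a marker of differentiation, read 586, 567 and 663 in CD104high and 499.8, 552 and 429 in CD104low. These sets did not overlap, though the gap between 567 and 552 was small, and the log2 fold change of 0.30 (SE 0.13) had a limma adjusted p of 0.0863. In the authors' deposited table MXD1 was just past the threshold (log2 fold change 0.29, adjusted p = 0.0483). It also passed without replicate 2 of CD104low (limma adjusted p = 0.0438). MXI1 (chromosome 10, 110207605 to 110287365), known as MXD2, read 989, 1138 and 1292 in CD104high and 959, 1031 and 949 in CD104low. The populations overlapped, with a log2 fold change of 0.21 with an SE of 0.11 (limma adjusted p = 0.153). MXD3 (chromosome 5, 177301461 to 177312757), the MXD protein linked to S phase rather than to differentiation, read 2279, 2024 and 2670 in CD104high and 2439, 1823 and 2492 in CD104low. Replicate 2 was the lowest and replicate 3 the highest in both populations, so the spread within a population was far larger than the difference between them (log2 fold change 0.05, SE 0.14, limma adjusted p = 0.794). MXD3 overlaps RAB24 on its own strand and PRELID1 on the other, and MXD1 overlaps SNRNP27, so their values may include shared reads.

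MNT (ENSG00000070444.15; chromosome 17, 2384060 to 2401118), the widely expressed MAX partner that opposes MYC in cycling cells, rose. It read 1357, 1395 and 1340 in CD104high and 1014, 1217 and 869 in CD104low. The CD104high values lay close together and above all CD104low values, among which replicate 2 was nearest. The log2 fold change was 0.41 (SE 0.12, limma adjusted p = 0.0228), a 1.33-fold rise. Without replicate 1 or 2 of CD104high, or 1 or 3 of CD104low, the limma adjusted p was 0.062 to 0.0745. After correction for length and GC content MNT was at 0.16 (limma adjusted p = 0.269).

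MGA (ENSG00000174197.16; chromosome 15, 41621224 to 41773081) read 3188, 3245 and 2776 in CD104high and 2338, 2590 and 2453 in CD104low. The populations did not overlap, and MGA rose 1.25-fold (log2 fold change 0.32, SE 0.08, limma adjusted p = 0.014). Leaving out replicate 1 or 2 of CD104high, or replicate 1 of CD104low, put its limma adjusted p at 0.0514 to 0.0615, and correcting for length and GC content gave 0.14 (limma adjusted p = 0.126). Its longest annotated transcript, at 14439 bases, was the longest of the 10.

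The MLX branch divided. MLX (ENSG00000108788.11; chromosome 17, 42567068 to 42573239), the shared partner of that branch, fell in CD104high, with 4059, 4219 and 3717 against 5545, 5072 and 5094. All CD104low libraries were higher than all CD104high libraries. The log2 fold change was -0.39 (SE 0.07, limma adjusted p = 0.00314), and -0.39 with the length and GC correction too. MLX overlaps PSMC3IP on the other strand by 925 bases, so the 2 genes may share reads. MLXIP (ENSG00000175727.14; chromosome 12, 122078722 to 122147347), the MLX partner that responds to glucose phosphates, went the other way, reading 2812, 2717 and 2499 against 2019, 2269 and 2133 in CD104low. It rose 1.25-fold (log2 fold change 0.32, SE 0.08, limma adjusted p = 0.0103) and lost its call without replicate 1 of CD104high (limma adjusted p = 0.0501), while the correction for length and GC content brought it to -0.017 (limma adjusted p = 0.86). Its longest transcript has 8427 bases and 57.9% GC, against 2586 bases and 51.8% for MLX. MLXIPL, the other MLX partner, rose from 39.1 ± 11.7 to 113 ± 26.4 (SD, n = 3 each), a log2 fold change of 1.52 (limma adjusted p = 0.0033), at a far lower read count than MLXIP. TXNIP, a glucose-uptake inhibitor and a known target of MLXIP with MLX, read 6344, 7365 and 8325 in CD104high and 3526, 4958 and 3135 in CD104low. It rose by 0.94 (limma adjusted p = 0.00245), or 1.06 with the correction. ARRDC4, the only other gene on the list of MLXIP and MLXIPL targets, was not analysed here.

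**Figure D2:**
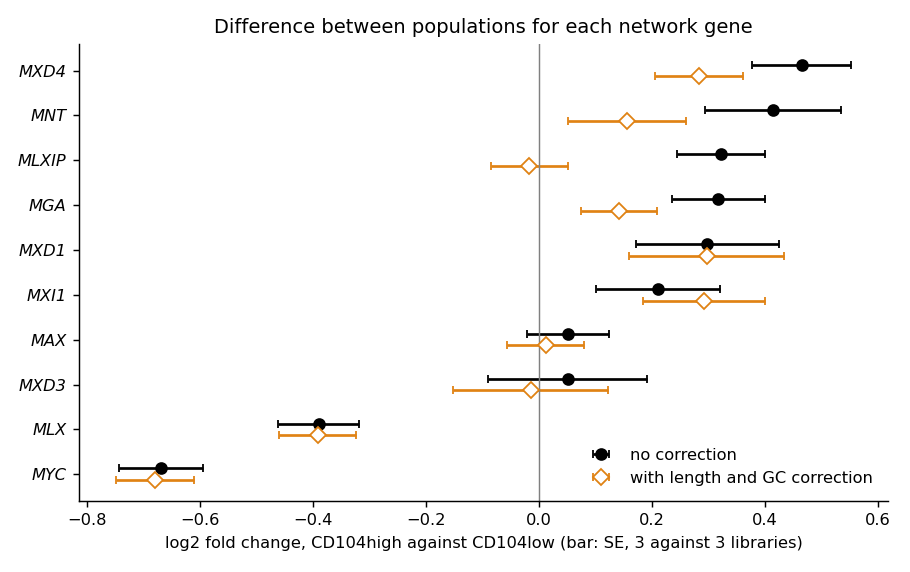
Log2 fold change of CD104high against CD104low (horizontal axis) for each network gene, with its SE, in limma without (black circles) and with (orange diamonds) a correction for transcript length and GC content. MYC and MLX stay at -0.67 to -0.68 and -0.39, while MLXIP moves from 0.32 to -0.017 and MNT from 0.41 to 0.16.

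Because MYC and its competitors share MAX, the ratio of MYC to each member was also computed within each library, where the scaling between libraries cancels. All 9 ratios were lower in every CD104high library than in every CD104low library. MYC alone already separated the populations, and the share of all genes whose ratio with MYC does so was not computed. The log2 ratio of MYC to MXD4 was -0.58, -0.95 and -0.85 in CD104high and 0.53, 0.08 and 0.41 in CD104low, so that on the scaled counts the ratio was 2.19-fold higher in CD104low. The ratio of MYC to MNT was 2.12-fold higher in CD104low, that to MAX 1.65-fold and that to MLX 1.21-fold, the smallest of the 9. With 3 against 3 libraries the exact 2-sided permutation test cannot go below p = 0.1, which each ratio reached, and the Benjamini-Hochberg adjusted value over the 9 ratios was 0.1 for all. The 9 ratios share the MYC values and are not independent of one another. They were not computed with the length and GC correction. That correction took the log2 fold change of MNT from 0.41 to 0.16, MXD4 from 0.46 to 0.28 and MLXIP from 0.32 to -0.017. MXI1 alone moved up, from 0.21 to 0.29.

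Levels of different genes were compared as scaled count per kilobase of the longest annotated transcript, which need not be the one expressed. In CD104low MYC led at 3611 ± 247 per kilobase, followed by MLX (2025 ± 103), MXD4 (1602 ± 171), MXD3 (988 ± 163) and MAX (780 ± 42.7; SD, n = 3 for each). MXI1, MLXIP, MNT and MGA lay between 282 and 170 per kilobase, and MXD1 was lowest at 88.4 ± 11.1. MXD3 and MAX overlapped in CD104low, as did MLXIP with MNT and MNT with MGA. In CD104high MYC (2271 ± 152) and MXD4 (2205 ± 151) overlapped at the top, and MLX came next at 1546 ± 99.3 (SD, n = 3 each). MXI1 and MLXIP overlapped there, and the other neighbours did not. The order rests on the transcript chosen: with the median length of protein-coding transcripts, MAX moved from the fifth to the second place in both populations. On that length MXD4 was in place 3 in CD104high, at a mean of 2298 per kilobase beside 3936 for MYC.

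**Figure D3:**
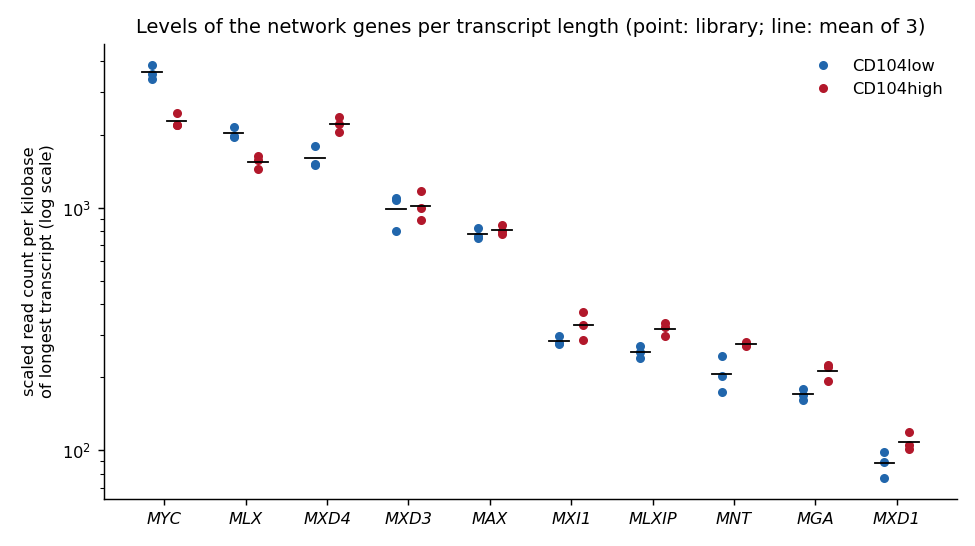
Scaled read count per kilobase of the longest transcript (vertical axis, log scale) for each network gene in CD104low (blue) and CD104high (red) libraries, with the mean of 3 as a line. MYC alone leads in CD104low at 3611, and in CD104high its points overlap those of MXD4.

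The 5 MAX-binding repressors MXD1, MXD3, MXD4, MXI1 and MNT were summed per kilobase to set them beside MYC. The sum was 3714, 3950 and 4139 in CD104high and 3147, 3238 and 3116 in CD104low. MXD4 supplied 56.1% ± 3.19 of the CD104high sum and 50.5% ± 4.36 of the CD104low sum (SD, n = 3 each). MYC stood at 0.659, 0.552 and 0.528 of the sum in CD104high and at 1.23, 1.05 and 1.14 in CD104low. MYC messenger was thus above the summed repressor messenger in each CD104low library and below it in each CD104high library. With the median coding length the mean ratios were 0.643 and 1.21. The sum is a description of transcript levels, was not computed with the length and GC correction, and gives no protein amounts.

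**Figure D4:**
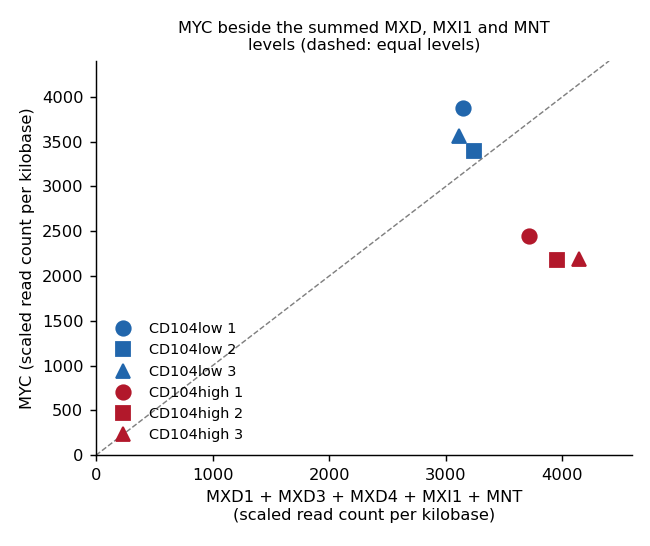
MYC (vertical axis) against the sum of MXD1, MXD3, MXD4, MXI1 and MNT (horizontal axis), both as scaled read count per kilobase, in each library. The dashed line marks equal levels: CD104low libraries (blue) lie above it, at ratios of 1.05 to 1.23, and CD104high libraries (red) below it, at 0.528 to 0.659.

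Lists of genes around the network were read from the same fit, by counts and medians. Each count stands beside the 21.8% of all tested genes called higher and 21.6% called lower, or 20.4% and 19.8% after correction for length and GC content. Of 17 tested genes that act on MYC transcription or on its messenger, 3 rose (17.6%) and 6 fell (35.3%), with a median log2 fold change of -0.20. E2F4, a cell cycle repressor, fell by 0.58 and PUF60, a splicing factor and repressor of MYC transcription, by 0.46 on the log2 scale. CTNNB1, which encodes beta-catenin, rose by 0.34 and SMAD3, the TGF-beta signal transducer, by 0.33, the latter being 0.15 (limma adjusted p = 0.101) after the length and GC correction. Of 16 genes of MYC protein turnover, 2 rose (12.5%) and 8 fell (50%), with a median of -0.23. SET, an inhibitor of the phosphatase PP2A, fell by 0.51, and PPP2CA, the catalytic subunit of that phosphatase, by 0.46. HUWE1, a very large ubiquitin ligase of MYC, rose by 0.52 but was at 0.16 (limma adjusted p = 0.105) with the correction. GSK3B, a kinase that marks MYC for degradation, rose by 0.29. Its paralogue GSK3A, on the same list, fell by 0.42 (limma adjusted p = 0.00548). FBXW7, the best known ubiquitin ligase receptor of MYC, is named here with its value already known and was at -0.12 (limma adjusted p = 0.288).

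Among 16 MYC coactivators and the MYC partner MIZ1, 3 rose (18.75%, near the 21.8% of all tested genes) and 5 fell (31.25%, beside 21.6%). The median was -0.035, and the correction for length and GC content changed these counts to 1 rise and 8 falls with a median of -0.16. RUVBL2 and RUVBL1, helicase-like subunits of the TIP60 complex, fell by 0.66 and 0.58, while the acetyltransferase EP300 rose by 0.64 and the scaffold TRRAP by 0.39. Corrected for length and GC content, TRRAP was at 0.03 (limma adjusted p = 0.776) and EP300 at 0.37. Of 14 genes of the SIN3 and histone deacetylase corepressor, through which MXD proteins and MNT act, 1 rose (7.14%) and 5 fell (35.7%), with a median of -0.16. SIN3A, a scaffold subunit, rose by 0.34, whereas SAP30 fell by 0.79 and the deacetylase HDAC2 by 0.64. Its paralogue SIN3B was at 0.06 (limma adjusted p = 0.464), and at -0.19 with the correction (limma adjusted p = 0.0188). Corrected in the same way, SIN3A was at 0.20 and SAP30 at -0.52, both still past the threshold, and the list had 2 rises and 6 falls. Of 12 PRC1.6 partners of MGA, 1 rose and 8 fell, with a list median of -0.32. PCGF6, the ring finger subunit of that complex, fell by 0.50, WDR5 by 0.39, and the E2F partner TFDP2 rose by 0.27. The correction brought TFDP2 to 0.08 (limma adjusted p = 0.304) and PCGF6 to -0.27, and left the list with 0 rises and 4 falls. The number of the 12 called was 3 without replicate 1 of CD104low, 4 without its replicate 3, and 4 and 5 without replicates 1 and 2 of CD104high.

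Genes that MYC is known to activate were described by 2 lists. Of 52 tested nucleolar and growth genes, 0 rose and 45 fell (86.5%, where 21.6% of all tested genes fell), with a median log2 fold change of -0.59. The correction for length and GC content left 44 falls and a median of -0.57. Of the 7 that did not pass, SLC19A1, a folate carrier, and SLC29A2, a nucleoside transporter, were on the higher side at 0.47 and 0.16, and are named here with their values already seen. HK2, the hexokinase of glycolytic entry, read 1325, 1384 and 1370 in CD104high and 2720, 2712 and 2691 in CD104low, and fell by 0.99. BYSL, a factor of small ribosomal subunit assembly, fell by 0.73. Of 17 classic MYC-activated genes, 0 rose, 12 fell (70.6%) and 5 did not pass, with a median of -0.53, and the correction gave 14 falls. ODC1, the first enzyme of polyamine synthesis, read 6210, 5812 and 6444 in CD104high and 18443, 15267 and 17253 in CD104low, or a log2 fold change of -1.46 with an SE of 0.08 (limma adjusted p = 0.000126). POLR3G, an RNA polymerase III subunit put on the list with its earlier result known, fell by 1.79, or by 1.42 with the correction. CAD and LDHA, textbook targets singled out with their values already seen, did not pass at 0.10 and -0.09. With the correction they changed sign, CAD to -0.23 (limma adjusted p = 0.0416) and LDHA to 0.08.

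Genes known to be repressed by MYC gave 5 rises and 1 fall among 9 (55.6% and 11.1%, beside 21.8% and 21.6% of all tested genes), with a median of 0.44. CDKN1A, the cell cycle inhibitor p21, read 5076, 4308 and 5655 in CD104high and 2133, 2256 and 1911 in CD104low, and rose by 1.25. PDGFRB, a growth factor receptor, rose by 1.07, and GADD45A, a stress-response gene, fell by 0.30. With the correction GADD45A was at -0.16 (limma adjusted p = 0.0664) and no longer passed, which left 4 rises and 0 falls. Without replicate 1 of CD104low, 3 of the 9 passed, all of them as rises. These lists describe genes named for MYC in other systems, and what set their levels here was not tested.

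**Figure D5:**
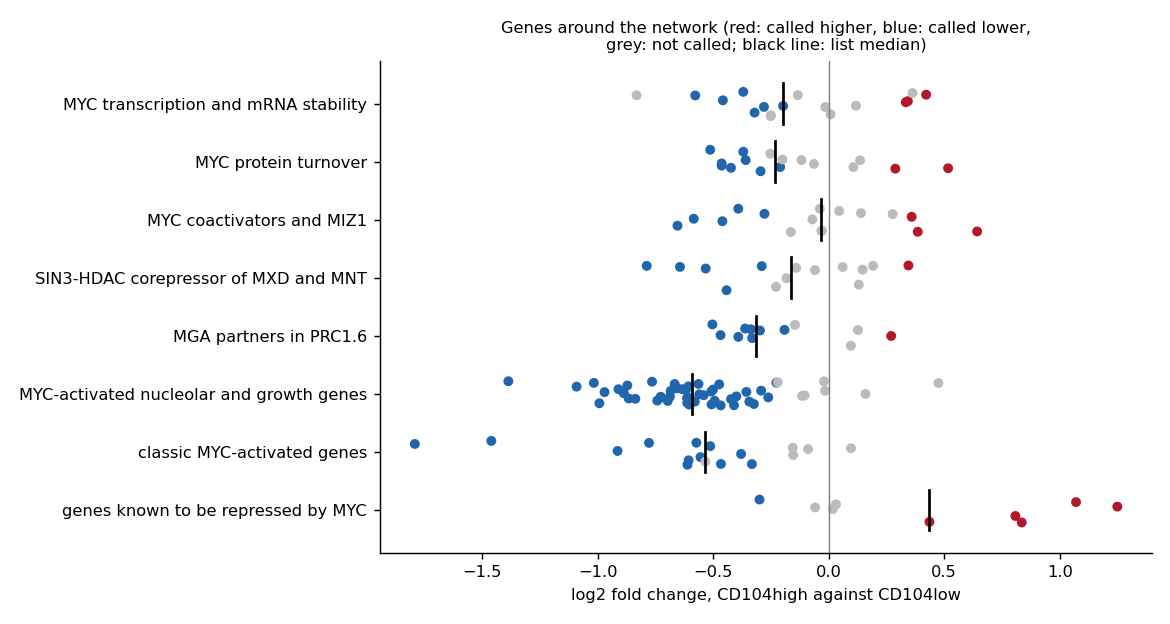
Log2 fold change of CD104high against CD104low (horizontal axis) for each tested gene of 8 lists around the network, in red where called higher, blue where called lower and grey where not called, with the list median as a black line. In the nucleolar and growth list 45 of 52 genes are blue and none is red, with the median at -0.59.

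The E-box shares of the 2 MYC-activated lists are shown because the network reads that sequence. Of 40 tested nucleolar and growth genes with a RefSeq promoter, 55% held CACGTG, and of 15 classic MYC-activated genes 53.3% did. Among all tested genes with a promoter the share was 12.2%. The other lists ranged from 0% (genes known to be repressed by MYC, among others) to 36.4% (MYC protein turnover). In HK2 there were 2 matches (chr2:74834949-74835008 and chr2:74834994-74835053, plus strand), starting 194 and 149 bases before the start site, and the match of ODC1 that lies upstream began 29 bases before it (chr2:10448013-10448068, minus strand).
HK2 distal: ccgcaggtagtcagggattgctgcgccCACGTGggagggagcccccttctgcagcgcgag
HK2 proximal: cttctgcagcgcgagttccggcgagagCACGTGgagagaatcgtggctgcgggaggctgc
ODC1: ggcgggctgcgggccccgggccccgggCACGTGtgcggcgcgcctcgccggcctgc
Within the MYC-activated lists, 25 of 30 genes with the motif fell (83.3%), and 21 of 25 without it did (84%). Over all genes with a promoter in the table, 24.4% of the 1359 with CACGTG fell and 20.8% rose, beside 22.4% and 22.1% of the 9779 without it. The 6 letters in the promoter thus went with little difference in these counts.

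Other bHLH-zipper factors that bind E-boxes gave 3 rises and 1 fall among 8 (37.5% and 12.5%, beside 21.8% and 21.6% of all tested genes). Their median of 0.12 turned to -0.023 with the length and GC correction, which left 2 rises and 1 fall. TFEB, a master regulator of lysosomal genes, rose by 0.75 and SREBF1, a regulator of lipid synthesis, by 0.67, while TFAP4, itself a known MYC target, fell by 0.53 on the log2 scale. With the correction SREBF1 was at 0.42 and TFAP4 at -0.82, both past the threshold. The 5 genes closest to MYC in profile were ranked by the root mean square difference of log2(value + 1) after each gene's mean was subtracted, over the 6 libraries and 12252 genes. They were EXOSC2, DDX31, VIM-AS1, SNHG3 and RRS1, at root mean square differences of 0.033, 0.0352, 0.0352, 0.0374 and 0.0382. Their Pearson r with MYC was 0.994 to 0.999, a description over 6 libraries that fall in 2 populations and share depth and scaling. VIM-AS1 is antisense to VIM, so how many of its reads are its own cannot be told.

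Between 49791498 and 60069719 recovered reads per library fell on the listed genes. ITGB4, which encodes the sorted protein, was at 16463 ± 2616 and 1699 ± 503 (SD, n = 3 each), in the direction of the labels, and KMT2C still gave 3561 to 3952 in CD104high and 2095 to 2814 in CD104low. VIM, CD44 and EGFR, genes of this line, were all present, and ESR1 and PGR were not analysed here. Of 8 leukocyte markers 4 were in the table, with summed levels of 782 to 1041 in CD104high and 381 to 484 in CD104low, of which LAPTM5 and CD14 rose, and the defining marker PTPRC was not analysed here. Of 6 fibroblast and pericyte markers, 5 were in the table (FAP was not analysed here). Their summed levels were 2066 to 3343 in CD104high and 1100.03 to 1603 in CD104low. Most of that sum was PDGFRB (means of 2221 and 1062), which rose and is also on the list of genes repressed by MYC. LUM rose too, at 98.9, 97.1 and 359 in CD104high, so its mean there leaned on replicate 3. RGS5 did not pass, and DCN (4.61 and 5.09) and PDGFRA (5.02 and 3.14) were too low to be tested. Of 5 endothelial markers, 3 were in the table, at summed levels of 69.6 to 110.5 and 55.3 to 99.9, and the 1 tested did not pass. The part of these markers in the differences of the network genes was not tested.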

How the data were processed

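The authors deposited, per the file headers, 1 table that gives a scaled read signal for each of its 15024 genes in every library. For the comparison of CD104high with CD104low it adds their log2 fold change, its standard error, the p-value and its adjusted form, as the authors computed them. Tools named in the submitters' processing notes are FastQC, Salmon 1.3.0 and DESeq2, in no stated order, with GRCh38 (hg38). The annotation, filters and model are not stated there. Row numbers in the deposited table ran to 19895 with 4871 absent, and no value in any library was 0. Shares of all genes here are thus shares of the rows that remained. Every signal value was a whole multiple of 1 step per library (100% within 0.01), as counts divided by a size factor would be. The whole numbers so recovered fed only the alternative tests.

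Here, limma 3.58.1 in R 4.3.3, with an intensity trend and population as the only term, was fitted to log2(value + 1) of genes with at least 10 in at least 3 libraries, with Benjamini-Hochberg adjustment. The fit was tested on simulated data. The correction alternative removed a loess trend (span 0.5) on the length and GC content of the longest GENCODE 29 transcript in each library, keeping library means. edgeR 4.0.16 and DESeq2 1.42.0 were run on recovered reads. The added 1 shrinks fold changes of weakly expressed genes. Promoters came from RefSeq, GRCh38.p14.

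The members and the 11 lists were chosen with earlier results of these data known. Named genes were the 10 members, up to 4 genes per list (the 2 smallest p in each direction among called genes), and the 5 genes nearest to MYC in profile. FBXW7, GSK3A, SIN3B, CAD, LDHA, MYCL, SLC19A1 and SLC29A2 are named outside this rule, with their values seen, as are genes that checks of overlap, label or cell type needed.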

Additional observations from a re-analysis of the deposited data

How the results depend on the processing

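MYC, MLX and MXD4 kept their direction and their call in every alternative run: other filters, pseudocounts and scalings, limma without trend, edgeR, DESeq2, the replicate block, the length and GC correction and each library left out. The correction reduced the members called from 6 to 3, with MNT at 0.16, MGA at 0.14, MLXIP reversed at -0.017 and MXD3 reversed at -0.015. Without the trend MNT kept its log2 fold change of 0.41 but not its call (limma adjusted p = 0.0515). With 1 library left out, the members called numbered 3 (without replicate 1 of CD104high) to 7 (without replicate 2 of CD104low), and all genes called 4101 (without replicate 1 of CD104low) to 6395. The log2 fold changes then ranged from 0.017 to 0.095 for MAX, 0.20 to 0.38 for MXD1, 0.11 to 0.31 for MXI1, -0.094 to 0.15 for MXD3, 0.30 to 0.54 for MNT, 0.28 to 0.39 for MGA and 0.28 to 0.37 for MLXIP. Of these 6 fits, MNT passed in 2, MGA in 3 and MLXIP in 5, and all 3 lost their calls without replicate 1 of CD104high (MLXIP at a limma adjusted p of 0.0501). With the median coding length, 6 of 20 places in the order of levels stayed. The ratio of MYC to every other member kept its direction with the other pseudocounts and with each library left out. No other alternative was run for the ratios. The cause of these shifts was not tested.

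Same-numbered libraries had correlations of their deviations from the population means of 0.0836, 0.359 and 0.324. The other pairs of libraries had -0.318 to 0.0131. Each library thus correlated best with its own number, but the labels do not say whether the replicates were paired. The main fit held no replicate term. The replicate block gave 7876 genes called in place of 6257 and the same 6 members.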
